A study of Equus caballus with 15 samples.

Results

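Cartilage oligomeric matrix protein (COMP, also known as thrombospondin 5) and the thrombospondins THBS1, THBS2, THBS3 and THBS4 are secreted glycoproteins of one gene family. Their genes were taken by symbol from the deposited count table, 5 of its 30297 genes, and 5 of 5 were among the 15343 genes that passed a filter on low counts and were tested. The table lists COMP as NCBI gene 100033911 on chromosome 21, THBS4 as 100073261 on chromosome 14, THBS3 as 100063449 on chromosome 5, THBS1 as 100057478 on chromosome 1 and THBS2 as 100050044 on chromosome 31. RNA came from the superficial digital flexor (SDF) muscle of the front limb and its attached tendon in 5 euthanized horses (Equus caballus), 4 mares and 1 gelding, aged 5 to 7 years and numbered 14, 16, 17, 18 and 20. From each horse a frozen biopsy punch of 4 mm was sectioned into a sample across the border of muscle and tendon (the myotendinous junction, MTJ), a tendon sample and a muscle sample, each about 200 micrometres deep. The junction is the site where muscle fibres anchor in tendon collagen, so the MTJ sample also contains muscle and tendon from either side, and the labels name no experimental treatment. The labels name a training state, which was not compared because it differs between the samples of horse 14. The family was compared between tendon and muscle, between the MTJ and each of its neighbours, and between the MTJ and a mixture of both.

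Thrombospondins are calcium-binding matrix proteins that act as bridges between collagens, growth factors and cell surface receptors. THBS1 and THBS2 assemble into trimers and carry the repeats that bind CD36 and inhibit the growth of blood vessels, and THBS1 also activates latent TGF-beta. THBS3, THBS4 and COMP assemble into pentamers and lack those repeats. COMP binds fibrillar collagens and fibronectin, speeds the assembly of collagen fibrils, and is abundant in cartilage and in weight-bearing tendons, those of the horse included. THBS4 is known from muscle attachment sites: in mice its loss disturbs tendon and muscle structure, and in Drosophila a thrombospondin is needed for muscles to stay attached to tendon cells.

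Libraries held 17160894 to 18659381 counts in the MTJ, 15304218 to 17048957 in tendon and 17115884 to 19295339 in muscle. Levels of a gene are given in CPM, counts divided by the library total and its TMM factor (trimmed mean of M values), as mean ± SD over 5 horses. The summed level of 9 muscle fibre markers was 186440 to 257635 CPM in the MTJ, 432 to 55335 CPM in tendon and 262981 to 328747 CPM in muscle. The tendon libraries stood apart from each other in these markers, with 37248 to 55335 CPM in horses 14, 16 and 17 but 432 CPM in horse 18 and 6920 CPM in horse 20. The 3 comparisons between tissues were therefore fitted again with the tendons of horses 14, 16 and 17 left out, and values that set the MTJ against tendon or a mixture are also given for horses 18 and 20 alone. The 8 tenocyte markers summed to 287 to 774 CPM in the MTJ, 1875 to 3278 CPM in tendon and 82.2 to 183 CPM in muscle. Of them SCX did not pass the filter and TNMD was low, at 3.47 ± 2.75 CPM in the MTJ, 1.60 ± 1.36 CPM in tendon and 0.154 ± 0.302 CPM in muscle, while the tendon cell regulator MKX reached 3.95 ± 2.53 CPM in the MTJ, 38.5 ± 10.9 CPM in tendon and 0.123 ± 0.117 CPM in muscle. Markers of cartilage cells were low, their sum over 9 genes being 5.72 to 26.6 CPM in the MTJ, 35.0 to 136 CPM in tendon and 2.5 to 5.72 CPM in muscle, and MATN1 had no count in the MTJ and muscle libraries. Of the 4 tested, ACAN and COL11A1 were higher in tendon than in muscle (9.79 ± 1.03 and 9.09 ± 0.85 log2 units). Both were also higher in the MTJ than in muscle (5.58 ± 1.27 and 8.24 ± 0.92), with COL11A1 at 0 CPM in muscle. SOX9 and COL9A2 were called in neither comparison. Macrophage markers summed over 6 genes to 63.4 to 127 CPM in the MTJ, 108 to 244 CPM in tendon and 27.2 to 69.3 CPM in muscle, with CD14 at 0 in all libraries. Of the 5 tested, 5 were higher in tendon than in muscle, 4 were lower in the MTJ than in tendon, and CD163 (1.11 ± 0.18 log2 units) and MRC1 (1.40 ± 0.29) were higher in the MTJ than in muscle. Endothelial markers, 6 genes, summed to 303 to 456 CPM in the MTJ, 381 to 844 CPM in tendon and 290 to 423 CPM in muscle, with 4 of 6 higher in tendon than in muscle and 5 of 6 lower in the MTJ than in tendon. The 6 pericyte and smooth muscle markers summed to 499.9 to 1168 CPM in the MTJ, 425 to 823 CPM in tendon and 496 to 834 CPM in muscle. Of them PDGFRB was the 1 that was higher in the MTJ than in muscle. Against tendon RGS5 was higher in the MTJ (0.91 ± 0.18 log2 units), and PDGFRB and NOTCH3 were lower. The 9 immediate early response genes summed to 203 to 319 CPM in the MTJ, 185 to 346 CPM in tendon and 241 to 295 CPM in muscle. Among all tested genes 38.6% were higher and 34.5% lower in tendon than in muscle, and 6.17% were higher in the MTJ than in muscle. Against tendon 34.4% were lower and 32.7% higher in the MTJ. The part of the other cell types above in the results on the family was not tested.

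COMP, THBS1, THBS3 and THBS4 were highest in tendon and lowest in muscle, with the MTJ in between, in each of the 5 horses. In CPM, THBS2 instead differed more between horses than between tissues. Its tendon and muscle values overlapped with the TMM factors, which were 0.671 to 0.747 in muscle and 1.46 to 1.88 in tendon. Without these factors they did not overlap. As a share of all counts THBS2 was at 0.00268% to 0.00510% in tendon and 0.000254% to 0.00262% in muscle. Both THBS2 and THBS3 were low, at or below 39.2 and 38.3 CPM. In tendon against muscle 5 of 5 members rose and none fell, in a comparison where 38.6% of all tested genes were higher and 34.5% lower (edgeR's quasi-likelihood test, blocked by horse, with p adjusted over all tested genes and under 0.05). The MTJ against muscle had COMP, THBS1, THBS3 and THBS4 higher, 4 of 5, where 6.17% of all tested genes were higher and 0.554% lower. Against tendon these 4 were lower in the MTJ and none was higher, where 34.4% of all tested genes were lower and 32.7% higher. For these 4 members the 5 values of one tissue did not overlap with those of another in any of the 3 comparisons, a separation found in 51.7% of tested genes between tendon and muscle, 5.63% between the MTJ and muscle and 45.4% between the MTJ and tendon. In bulk samples, fewer cells of a type and less RNA per cell cannot be told apart.

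**Figure D1:**
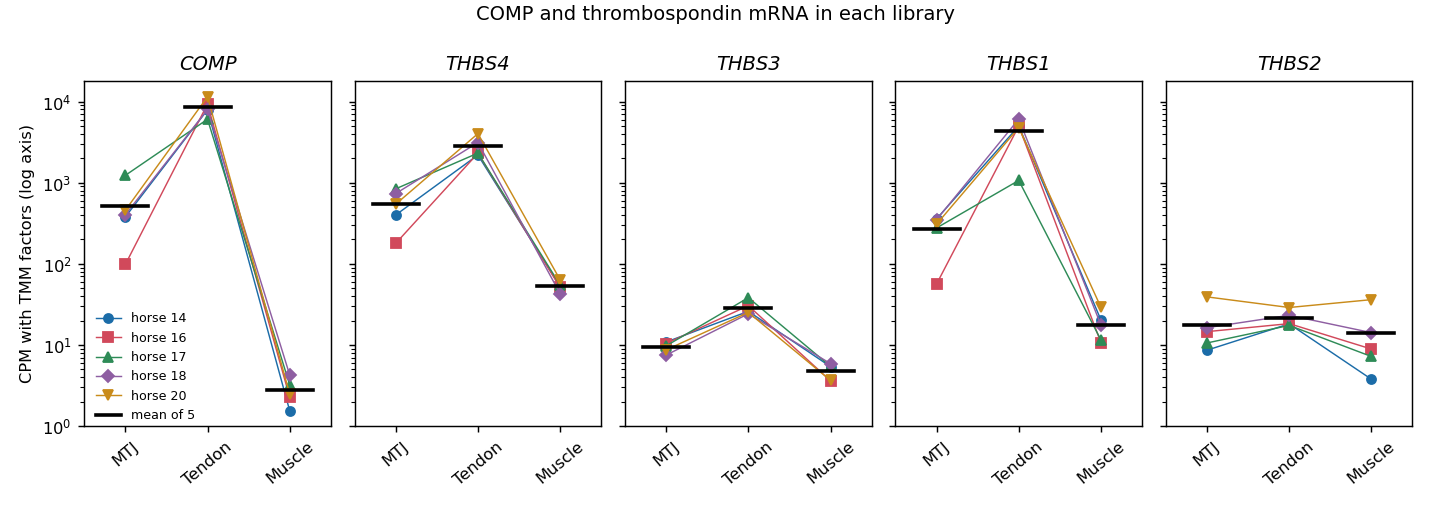
Level of each member in CPM on a log axis in the MTJ, tendon and muscle library of each of the 5 horses; lines join the libraries of a horse and black bars are means of 5. COMP averaged 514 CPM in the MTJ (335 CPM without horse 17), 8562 CPM in tendon and 2.76 CPM in muscle, while the THBS2 values of the 3 tissues overlapped.

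COMP, the collagen-binding pentamer, had the largest differences between tissues of the 5 members. In the MTJ it stood at 379 CPM in horse 14, 98.3 CPM in horse 16, 1233 CPM in horse 17, 403 CPM in horse 18 and 458 CPM in horse 20. In tendon it stood at 7936, 9330, 6064, 7996 and 11486 CPM in the same horses. In muscle it stood at 1.55, 2.27, 3.22, 4.27 and 2.49 CPM, which rest on 20 to 58 counts per library. Horse 17 was the highest in the MTJ and the lowest in tendon, and horse 16 was the lowest in the MTJ. The highest and lowest MTJ values differed 12.5-fold, and the highest and lowest tendon values 1.89-fold. COMP was 11.72 ± 0.71 (SE) log2 units higher in tendon than in muscle (adjusted p = 2.49e-08, edgeR), the second largest rise among 15343 genes. It was 7.35 ± 0.61 log2 units higher in the MTJ than in muscle (adjusted p = 2.74e-05), the sixth largest rise there, and its log2 change in the MTJ over tendon was -4.37 ± 0.54 (adjusted p = 1.24e-05). COMP alone took 0.0439% ± 0.0376 of all counts in the MTJ (0.0280% without horse 17), 1.44% ± 0.360 in tendon and 0.000199% ± 0.0000796 in muscle.

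THBS4, the pentamer of muscle attachment sites, was present in each of the 3 tissues, muscle included. In the MTJ it stood at 401 CPM in horse 14, 179 CPM in horse 16, 841 CPM in horse 17, 736 CPM in horse 18 and 544 CPM in horse 20. In tendon the same horses had 2197, 2311, 2320, 3133 and 4033 CPM, and in muscle 52.5, 51.2, 55.0, 42.9 and 63.6 CPM. As for COMP, horse 17 was the highest and horse 16 the lowest in the MTJ, and the muscle values were the most even, differing 1.48-fold. THBS4 was 5.68 ± 0.36 log2 units higher in tendon than in muscle (adjusted p = 3.33e-08, edgeR) and 3.23 ± 0.33 higher in the MTJ than in muscle (adjusted p = 9.98e-05). In the MTJ over tendon its log2 change was -2.45 ± 0.32 (adjusted p = 1.95e-05). Its MTJ level was 19.8% ± 10.9 of the tendon level of the same horse, and that of COMP was 7.04% ± 7.60. The COMP value rested on horse 17, at 20.3% against 1.05% to 5.05% in the others, and averaged 3.72% without it, where THBS4 averaged 15.7%.

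THBS3, a pentamer whose loss alters the timing of skeletal growth in mice, had low levels with little spread. It stood at 10.9, 10.4, 9.75, 7.51 and 8.71 CPM in the MTJ of horses 14, 16, 17, 18 and 20. In tendon it stood at 26, 30.5, 38.3, 24.3 and 25.2 CPM, and in muscle at 5.41, 3.62, 5.45, 5.89 and 3.66 CPM. The 3 tissues were separate, although the lowest MTJ and the highest muscle value were close. THBS3 was 2.57 ± 0.17 log2 units higher in tendon than in muscle (adjusted p = 3.47e-08, edgeR) and 0.97 ± 0.17 higher in the MTJ than in muscle (adjusted p = 0.00337), and its change in the MTJ over tendon was -1.60 ± 0.16 (adjusted p = 1.73e-06). Horse 17, the highest for COMP and THBS4 in the MTJ, was the highest for THBS3 in tendon and in the middle of the MTJ values.

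THBS1, the trimer that activates latent TGF-beta, was high in tendon in 4 of 5 horses. In the MTJ it stood at 358 CPM in horse 14, 56.4 CPM in horse 16, 277 CPM in horse 17, 351 CPM in horse 18 and 309 CPM in horse 20. In tendon it stood at 5002, 4996, 1068, 6095 and 4782 CPM, and in muscle at 20.3, 10.7, 11.5, 17.7 and 29.1 CPM. Horse 16 lay far below the rest in the MTJ, as did horse 17 in tendon, while the muscle values differed 2.73-fold. THBS1 was 7.97 ± 0.59 log2 units higher in tendon than in muscle (adjusted p = 1.35e-07, edgeR) and 3.93 ± 0.50 higher in the MTJ than in muscle (adjusted p = 0.000531). Its change in the MTJ over tendon was -4.05 ± 0.51 (adjusted p = 1.87e-05). Platelets store the THBS1 protein, and 5 of their marker genes summed to 5.54 to 9.75 CPM in the MTJ, 14.1 to 19.6 CPM in tendon and 3.9 to 6.67 CPM in muscle. PPBP was at 0 in all 15 libraries. Of the 3 tested, ITGA2B (1.79 ± 0.13 log2 units) and GP9 (1.89 ± 0.43) were higher in tendon than in muscle, and GP1BA was not called. ITGA2B was also higher in the MTJ than in muscle (0.63 ± 0.13), and all 3 were lower in the MTJ than in tendon. The part of platelets in the THBS1 values was not tested.

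THBS2, the trimer that inhibits vessel growth but does not activate TGF-beta, overlapped between the tissues in CPM. In the MTJ it stood at 8.63 CPM in horse 14, 14.6 CPM in horse 16, 10.6 CPM in horse 17, 16.3 CPM in horse 18 and 39.2 CPM in horse 20. In tendon it stood at 18.2, 18.3, 17.4, 23.2 and 29.0 CPM, and in muscle at 3.79, 8.92, 7.22, 14.2 and 36.2 CPM. Horse 20 was the highest and horse 18 the second highest in each tissue, and in horse 20 alone the tendon CPM was the lowest of the 3. As a share of all counts, without TMM factors, the tendon of horse 20 was instead the highest. It was at 0.00510% against 0.00324% in the MTJ and 0.00262% in muscle. THBS2 was 0.95 ± 0.26 log2 units higher in tendon than in muscle (adjusted p = 0.00591, edgeR), with 4 of 5 horses in that direction. Without horse as a block that call was lost (0.59 ± 0.52, adjusted p = 0.319), and likewise without the tendon libraries of horses 14, 16 and 17 (0.36 ± 0.25, adjusted p = 0.236). Other settings gave a larger rise. It was 1.28 ± 0.21 without horse 20 (adjusted p = 0.000351, edgeR). With library totals in place of TMM factors it was 2.20 ± 0.26 (adjusted p = 5.27e-06, edgeR), where the median of all genes moved to 1.36. Neither test of the MTJ passed, with log2 changes of 0.47 ± 0.26 over muscle (5 of 5 horses higher, adjusted p = 0.341) and -0.48 ± 0.25 over tendon (4 of 5 horses lower, adjusted p = 0.111). Both depended on the libraries fitted: without horse 20 the change over tendon was -0.67 ± 0.21 and passed (adjusted p = 0.0167), without the 3 tendon libraries it was 0.14 ± 0.26, and with only MTJ and muscle libraries in the fit the change over muscle was 0.49 ± 0.14 and passed (adjusted p = 0.0226). For COMP, THBS1, THBS3 and THBS4 each of the 3 tests kept its call and direction without the 3 tendon libraries.

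**Figure D2:**
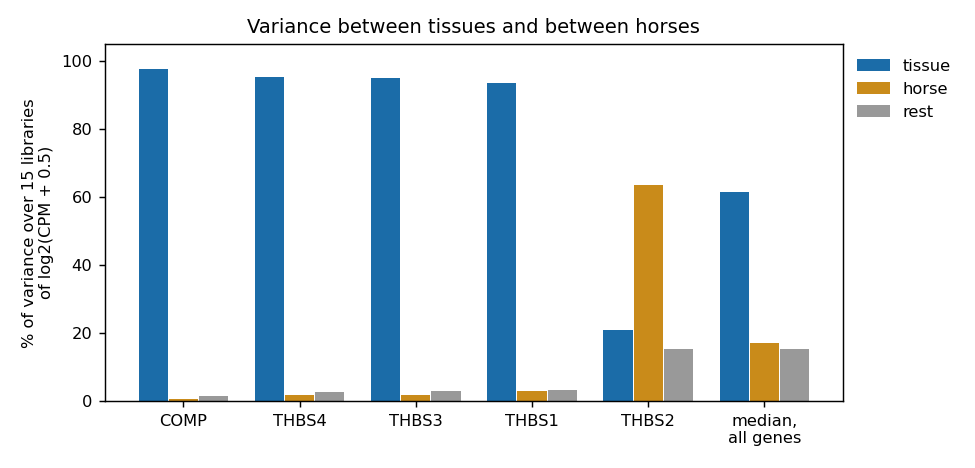
Share of the variance of log2(CPM + 0.5) over 15 libraries that lies between tissues, between horses and in neither, for each member and as the median of all 15343 tested genes. THBS2 has 21.0% between tissues and 63.5% between horses, and the other members have over 93% between tissues.

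The plot of variance shares shows how far THBS2 departs from the other members. Of its variance on the log2(CPM + 0.5) scale with TMM factors over 15 libraries, 21.0% lay between tissues and 63.5% between horses. In the other members 93.4% to 97.6% lay between tissues and 0.728% to 3.15% between horses. The medians over all tested genes were 61.6% and 17.2%. In the 6 libraries of horses 18 and 20 THBS2 had 2.31% between tissues and 79.6% between horses, beside medians over all tested genes of 83.4% and 4.48%. Over all libraries 906 of 15343 genes had a larger share between horses than THBS2. Only 22 genes had a larger share between tissues than COMP. These shares are descriptions, as the horses differ in age, sex and labelled training together, which cannot be told apart with 5 animals.

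Levels of different genes were compared per length, in a TPM-like form made from the counts and the deposited gene lengths (2302 bases for COMP to 5732 for THBS1), scaled so that each library has the same sum. In the MTJ, COMP averaged 390 ± 340 (245 without horse 17) and THBS4 302 ± 168, and COMP was the higher in 3 of 5 horses, so that these neighbours in the order did not differ beyond their spread. THBS1 followed at 80.8 ± 38.6, below THBS4 in 5 of 5 horses, and THBS2 at 5.38 ± 3.55 and THBS3 at 4.17 ± 0.392 overlapped. In tendon the order was COMP at 13566 ± 3274, then THBS4 at 3311 ± 1113 and THBS1 at 2775 ± 1276, which overlapped, and far below them THBS3 at 27.8 ± 6.92 above THBS2 at 14.0 ± 3.99 in 5 of 5 horses. In muscle THBS4 led at 23.9 ± 3.52 without overlap, followed by THBS1 at 4.38 ± 1.77, THBS2 at 3.56 ± 3.23 (2.19 without horse 20), THBS3 at 1.79 ± 0.454 and COMP at 1.72 ± 0.727. Among all genes of a library ranked per length, COMP was at rank 127 to 1416 in the MTJ (median 369), 5 to 8 in tendon (median 6) and 8290 to 10929 in muscle (median 9721). THBS4 held median ranks of 413 in the MTJ, 39 in tendon and 2810 in muscle.

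**Figure D3:**
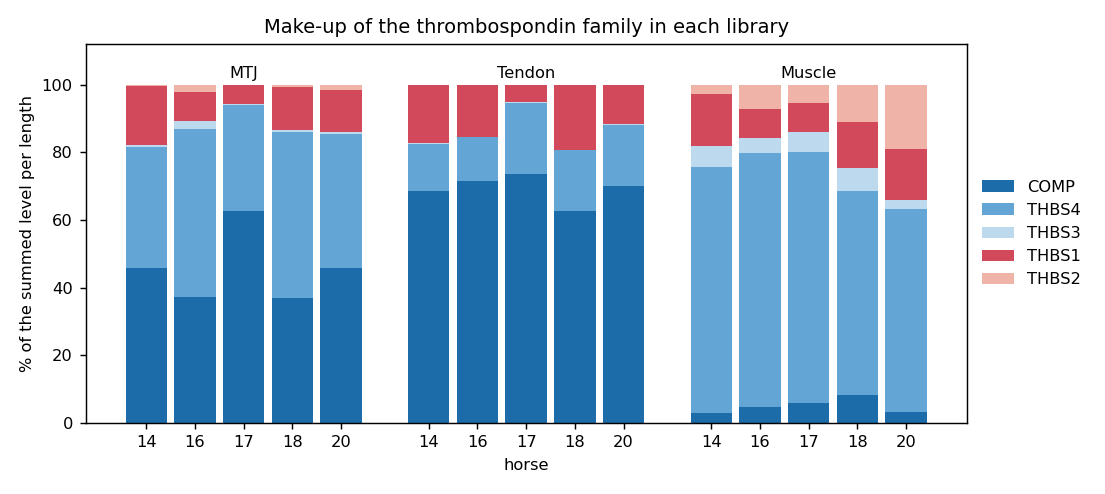
Share of each member in the summed level per length of the 5 members (the per-length values sum to 100%), for each horse in the MTJ, tendon and muscle. COMP makes up 36.8% to 62.5% in the MTJ, 62.6% to 73.7% in tendon and 2.91% to 8.16% in muscle, where THBS4 makes up 59.9% to 75.2%.

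The family differed between tissues in its make-up, as the plot of shares shows. COMP made up 45.6% ± 10.4 of the summed level per length in the MTJ, 69.3% ± 4.18 in tendon and 4.94% ± 2.16 in muscle. THBS4 made up 41.2% ± 8.19 in the MTJ, 16.8% ± 3.21 in tendon and 68.5% ± 7.65 in muscle. THBS1 made up 11.4% ± 4.47 in the MTJ, 13.8% ± 5.52 in tendon and 12.2% ± 3.42 in muscle, values that lay within their spread. THBS2 made up 1.03% ± 0.872 in the MTJ, 0.0713% ± 0.0111 in tendon and 9.17% ± 6.28 in muscle, and THBS3 made up 0.881% ± 0.855 in the MTJ (0.507% without horse 16), 0.153% ± 0.0741 in tendon and 5.24% ± 1.62 in muscle. All 5 members together took 0.115% ± 0.0658 of the counts in the MTJ, 2.66% ± 0.752 in tendon and 0.00661% ± 0.00181 in muscle.

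Whether pairs of members kept a constant ratio across tissues was tested by permuting the tissues within each horse, which has 7776 arrangements and cannot give a p below 0.000772. The log2 ratio of COMP to THBS4 in CPM was -0.30 ± 0.59 (SD, n = 5) in the MTJ, 1.62 ± 0.29 in tendon and -4.08 ± 0.58 in muscle. The exact two-sided permutation test gave this smallest p of 0.000772 for that ratio, or 0.000965 after Benjamini-Hochberg adjustment over the 10 pairs. COMP to THBS1 was 0.76 ± 0.83 in the MTJ, 1.15 ± 0.82 in tendon and -2.46 ± 0.80 in muscle, so that the MTJ and tendon ratios lay within their spread and the muscle ratio apart. THBS1 to THBS4 was -1.06 ± 0.62 in the MTJ, 0.48 ± 0.97 in tendon and -1.63 ± 0.54 in muscle. The tissue means lay closest for THBS2 to THBS3, at 0.69 ± 0.94 in the MTJ, -0.44 ± 0.52 in tendon and 1.09 ± 1.34 in muscle (adjusted p = 0.00309, exact permutation test). The 10 pairs had adjusted p-values of 0.000965 to 0.00309 in this test. It was not run on pairs of other genes, so how often pairs outside the family pass is not known. In tendon over muscle 73.1% of all tested genes were called (edgeR), so a changing ratio is not shown to be particular to these members. In horses 18 and 20 alone, where the exact test cannot give a p below 0.167, COMP to THBS4 averaged -0.56 in the MTJ, 1.43 in tendon and -3.80 in muscle, and THBS2 to THBS3 averaged 1.59 in the MTJ, 0.069 in tendon and 2.17 in muscle.

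Because the MTJ section contains muscle and tendon, its members were next set against what a plain mixture would hold. For each horse, the ratio of MTJ to muscle CPM was taken for 217 of the authors' muscle reference genes, and its median was the muscle share. The median ratio of MTJ to tendon over their 322 tendon reference genes was the tendon share. The authors chose both lists on these libraries. The shares averaged 77.6% ± 5.66 for muscle and 15.9% ± 5.16 for tendon. COMP, THBS1 and THBS4 are themselves in the deposited tendon list, at rank 3, 19 and 64 of 322 by log2 fold change, and leaving them out moved no member's log2 ratio by more than its SE. COMP lay below the mixture in 5 of 5 horses, with log2 ratios of -1.52, -3.55, -0.27, -1.73 and -1.61 in horses 14, 16, 17, 18 and 20 and a mean of -1.74 ± 0.41 (SE, limma, adjusted p = 0.121). With a pseudocount of 2 CPM in place of 0.5 CPM it was -1.73 and passed the test (adjusted p = 0.0467). THBS1 lay below it in 4 of 5 horses, with a mean of -1.38 ± 0.45 (adjusted p = 0.227, limma), and in horse 17 it was at 0.035. Without horse 16 the THBS1 mean was -0.87. THBS2 lay above it in 5 of 5 horses, by 0.12 to 0.60, with a mean of 0.36 ± 0.10 (adjusted p = 0.173, limma). THBS3 averaged 0.19 ± 0.17 and THBS4 0.045 ± 0.20. The THBS4 mean was -0.059 without horse 17 and -0.045 without horse 18. In horses 18 and 20 alone the means were -1.67 for COMP, -1.26 for THBS1, 0.26 for THBS2, 0.20 for THBS3 and 0.21 for THBS4, with adjusted p-values of 0.312 to 0.686 (limma). In that setting 0 of 15343 genes passed, so its test decides nothing about the members. With all 5 horses and 0.5 CPM added, no member passed the adjusted test, which 1.01% of tested genes did. COMP, THBS1 and THBS2, 3 of 5, had an unadjusted p under 0.05 there (limma), against 15.5% of tested genes. One sign in 5 of 5 horses was found in 16.7% of tested genes. The authors' deposited table gives mean log2 changes of -1.74 for COMP, -1.39 for THBS1, 0.38 for THBS2, 0.21 for THBS3 and 0.045 for THBS4, and no horse's value here differed from the deposited one by more than 0.0412 log2 units.

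The tendon share behind this comparison changed with the reference genes it was read from. Tendon reference genes with a deposited log2 fold change (tendon over muscle) of 3 to 4 stood in the MTJ at 20.4% ± 4.71 of their tendon level (median of 133 genes, mean of 5 horses). Those of 4 to 5 stood at 14.8% ± 5.05 (85 genes), those of 5 to 7 at 11.4% ± 6.12 (74 genes) and those of 7 to 15 at 6.95% ± 5.52 (30 genes), the members COMP and THBS1 in the last group and THBS4 in the one before it included. The muscle level of these same 4 groups was 8.16%, 4.58%, 1.78% and 0.0876% of the tendon level. COMP, at 7.04% ± 7.60 in the MTJ and 0.0344% in muscle, and THBS1, at 9.29% ± 9.61 and 0.519%, were near the most tendon-specific genes. Horse 17 raised all of these means: without it COMP averaged 3.72%, THBS1 5.13% and the group of 7 to 15 4.58%. In horses 18 and 20 alone COMP was at 5.05% and 3.99%, THBS1 at 5.76% and 6.46%, THBS4 at 23.5% and 13.5%, and the group of 7 to 15 at 5.87% and 5.65%. THBS4 at 19.8% ± 10.9 in the MTJ and 1.98% in muscle was above the median of the 5 to 7 group, whose muscle level is alike, in 5 of 5 horses. Horse by horse, THBS4 stood above 109 to 269 of all 322 reference genes, THBS1 above 14 to 177 and COMP above 11 to 95. Of the 28 reference genes of at least 7 log2 units that are not members, a class more tendon-specific than THBS4 itself (5.64 in the authors' deposited table), THBS4 stood above 25 to 27, THBS1 above 8 to 24 and COMP above 5 to 20. The tendon share of the horses moved with these values, and its part in them was not tested. The 28 genes gave a tendon share of 15.8% in horse 17, 4.82% to 6.09% in horses 14, 18 and 20 and 2.04% in horse 16, and horses 17 and 16 had the highest and lowest COMP and THBS4 in the MTJ.

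**Figure D4:**
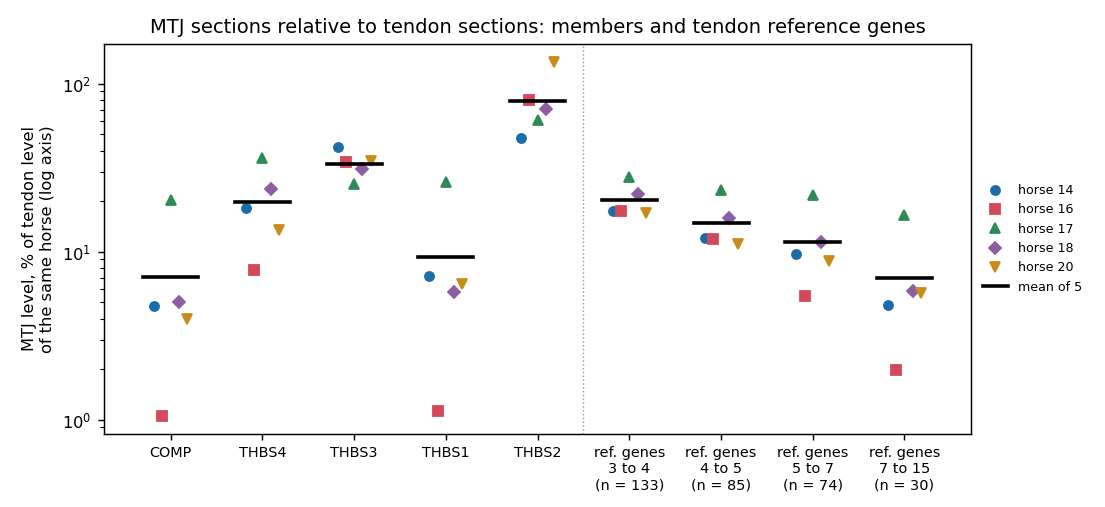
MTJ level as a percentage of the tendon level of the same horse (log axis) for each member, and as the median of tendon reference genes grouped by their deposited log2 fold change of tendon over muscle; points are horses and bars means of 5. COMP (7.04%) and THBS1 (9.29%) lie near the most tendon-specific group (6.95%). THBS4 (19.8%) lies above the group of 5 to 7 (11.4%), whose muscle level of 1.78% of tendon is like its own 1.98%. The group of 3 to 4 (20.4%) has a muscle level of 8.16% and so is less like THBS4.

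The tendon share was then taken from those 28 genes, a choice made after seeing the data. Since THBS4 stood above nearly all of them, this choice itself places it above the mixture, and the values are a description with no test. THBS4 was at a mean log2 ratio of 1.23 ± 0.14 (SE, n = 5), with 0.96 to 1.74 in single horses, THBS3 at 0.72 ± 0.20, THBS2 at 0.63 ± 0.13, THBS1 at 0.020 ± 0.23 and COMP at -0.28 ± 0.19, beside a median of 0.20 over all tested genes. With all 322 genes but each tissue's reference level corrected for the other tissue, no member passed the test, and THBS4 was at 0.47 ± 0.15 and COMP at -1.26 ± 0.34. COMP had the lowest mean of the 5 members in each of the 3 settings, and THBS4 had a higher mean than THBS1 in each. The 3 settings use the same libraries. Nearly all of the predicted level of COMP, THBS1 and THBS4 comes from tendon, so another tendon share moves these members almost together. Their order across settings is therefore no independent check.

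**Figure D5:**
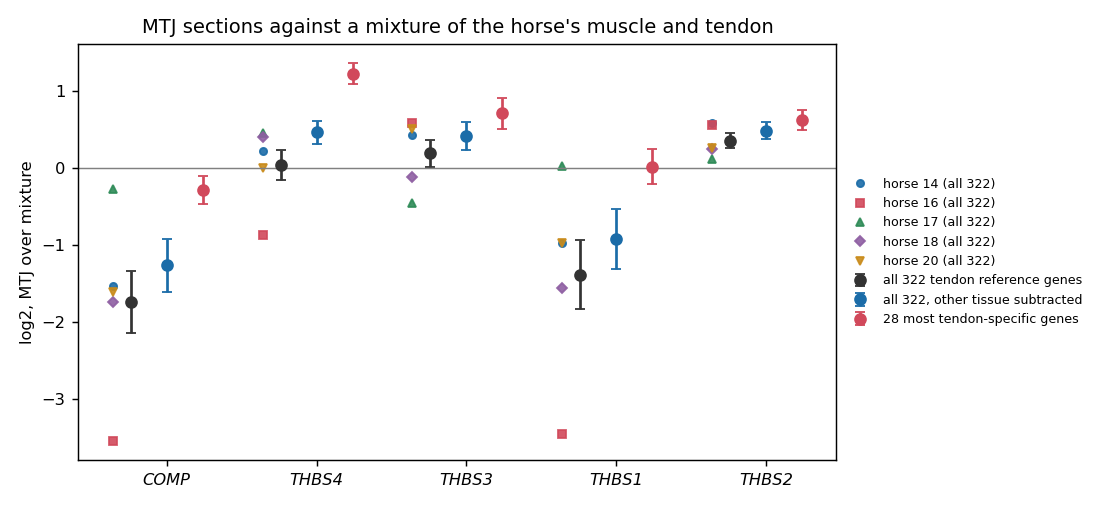
Log2 ratio of the MTJ level to a mixture of the muscle and tendon levels of the same horse for each member; small points are horses with the tendon share from all 322 reference genes, and large points are means with SE (n = 5) for 3 ways of setting the tendon share. THBS4 averages 0.045, 0.47 and 1.23 under the 3 ways and COMP -1.74, -1.26 and -0.28, with the third way raising THBS4 by its construction.

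Genes whose pattern was most like that of a member were found by Pearson's r of log2(CPM + 0.5) over the 15 libraries among 9086 genes with a symbol and at least 5 CPM on average. These correlations are descriptions, since the 15 libraries share 3 tissues and 5 horses. COMP was most like DKK1, a secreted Wnt inhibitor (r = 0.99), THBS4 (r = 0.989) and ITGA10, a collagen-binding integrin of cartilage (r = 0.988). THBS4 was most like ITGA10 (r = 0.995), the potassium channel KCNK1 (r = 0.99) and COMP. THBS1 was most like CDO1, a cysteine-degrading enzyme (r = 0.99), and MGP, an inhibitor of calcification (r = 0.99). Once tissue means were removed, the 10 pairs of members ran between an r of -0.487 (THBS2 with THBS3) and 0.789 (COMP with THBS4). COMP, THBS1 and THBS4 were positive with each other, the other two pairs having an r of 0.576 (COMP with THBS1) and 0.633 (THBS1 with THBS4), and THBS3 was negative with each other member, at -0.484 with THBS1, -0.443 with THBS4 and -0.110 with COMP. THBS2 had an r of 0.0996 to 0.222 with COMP, THBS1 and THBS4. Within tissues THBS4 was most like MKX, the tendon cell regulator (r = 0.938), COMP was most like TIMP2, a protease inhibitor (r = 0.885), and LOX, which cross-links collagen (r = 0.868), and THBS1 was most like the nucleolar helicase DDX21 (r = 0.946). THBS2 was most like ZRANB2 over all libraries (r = 0.908), with only 2 genes above an r of 0.9, against 426 for COMP and 601 for THBS4.

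Genes listed as receptors or binding partners of the family, called receptors for short, moved in both directions. Of 16 listed genes 15 were tested, and in tendon against muscle 9 rose and 4 fell (edgeR, adjusted p under 0.05), with a median log2 change of 0.83 beside 0.13 over all tested genes. LRP1, the endocytic receptor that clears thrombospondins, was at 70.1 ± 25 CPM in the MTJ, 275 ± 36.1 CPM in tendon and 36 ± 5.81 CPM in muscle. It rose by 2.94 ± 0.14 in tendon over muscle and by 0.92 ± 0.13 in the MTJ over muscle (adjusted p = 0.000942). CD36, the THBS1 and THBS2 receptor that also takes up fatty acids, ran the other way, with 239 ± 59.1 CPM in the MTJ, 71.6 ± 34.3 CPM in tendon and 299 ± 36.5 CPM in muscle, and a log2 change of -2.17 ± 0.19 in tendon over muscle (adjusted p = 4.37e-07). CACNA2D1, a calcium channel subunit that binds thrombospondins in mouse neurons, likewise fell in tendon, by 2.62 ± 0.24 on the log2 scale, as did the laminin receptor subunit ITGA7. CD47, the receptor of the thrombospondin C-terminal end, stood at 3.41 ± 0.962 CPM in the MTJ, 4.59 ± 1.08 CPM in tendon and 2.75 ± 0.465 CPM in muscle and rose by 0.70 ± 0.23 in tendon over muscle (adjusted p = 0.0152), and ITGB1, the common beta subunit of many matrix integrins, had a log2 change of 0.042 ± 0.11. Between the MTJ and muscle LRP1, ITGB3 (1.39 ± 0.28) and ITGA5 (1.00 ± 0.24) rose, 3 of 15, and none fell; 1 receptor was called without horse 20, and 6 with the tendons of horses 14, 16 and 17 left out. Against tendon 4 rose in the MTJ, CD36, CACNA2D1, ITGA7 and STIM1, and 8 fell.

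Most of the tested genes for binding partners and proteases of COMP were higher in tendon than in muscle. Of 21 listed genes 14 were tested. In tendon over muscle 10 rose and none fell, with a median log2 change of 2.49 beside 0.13 over all tested genes. In that comparison 38.6% of all tested genes were higher and 34.5% lower. COL12A1, a collagen on the surface of fibrils, was at 19.2 ± 10.6 CPM in the MTJ, 197 ± 61.2 CPM in tendon and 2.60 ± 1.34 CPM in muscle. It rose by 6.29 ± 0.40 log2 units in tendon over muscle (adjusted p = 2.07e-07). FN1, fibronectin, was at 636 ± 370 CPM in the MTJ, 5837 ± 1649 CPM in tendon and 137 ± 29.3 CPM in muscle, and DCN, the collagen-binding proteoglycan decorin, was at 1214 ± 542 CPM in the MTJ, 10206 ± 3269 CPM in tendon and 310 ± 55.7 CPM in muscle. ACAN, the cartilage proteoglycan aggrecan, was at 5.13 ± 8.22 CPM in the MTJ (1.49 CPM without horse 17), 66.0 ± 53.0 CPM in tendon and 0.0767 ± 0.0947 CPM in muscle, and it rose by 9.79 ± 1.03 log2 units in tendon over muscle (adjusted p = 1.79e-05). The proteases split: HTRA1 rose by 3.37 ± 0.24 in tendon (adjusted p = 1.65e-07), while ADAMTS4, ADAMTS7 and ADAMTS12, enzymes that cut COMP, had log2 changes of -0.19 ± 0.69, 0.88 ± 0.58 and -0.21 ± 0.23 that did not pass. Over muscle 6 rose in the MTJ and none fell, with a median of 0.73 beside -0.0036 over all tested genes, among them COL12A1 (2.81 ± 0.36) and FN1 (2.15 ± 0.34). Over tendon 11 fell in the MTJ and none rose.

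In the TGF-beta list, chosen for the activity of THBS1, 11 of 15 tested genes rose and 1 fell in tendon over muscle, with a median log2 change of 1.65. LTBP2, an elastic fibre protein of the latent TGF-beta binding protein family, was at 24.8 ± 10.6 CPM in the MTJ, 161 ± 38.5 CPM in tendon and 2.00 ± 0.782 CPM in muscle. CCN2, a matricellular protein that TGF-beta induces, was at 281 ± 199 CPM in the MTJ, 2973 ± 651 CPM in tendon and 44.5 ± 18.8 CPM in muscle. Both rose in tendon, by 6.36 ± 0.46 and 6.19 ± 0.40 log2 units (adjusted p = 7.74e-07 and 3.45e-08, edgeR), and ITGB6, whose integrin releases TGF-beta from its latent form, fell there by 3.44 ± 0.76 (adjusted p = 0.00251). Of the ligands, TGFB2 had a log2 change of -0.15 ± 0.22, TGFB3 rose by 1.05 ± 0.33 (adjusted p = 0.0145), and TGFB1 did not pass the filter. In the MTJ over muscle 5 rose and none fell, LTBP2 (3.6 ± 0.43), LTBP3, LTBP4, the receptor TGFBR2 (0.96 ± 0.10) and CCN2 (2.58 ± 0.34); 3 genes were called without horse 20, and 3 without horse as a block. Relative to tendon, ITGB6 rose in the MTJ and 9 genes fell.

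Thrombospondins are folded in the endoplasmic reticulum (ER), and in mice THBS4 acts there with the stress sensor ATF6. Of 14 listed ER folding and secretion genes 12 were tested, and 9 rose and 2 fell in tendon over muscle, with a median log2 change of 1.03. SERPINH1, the collagen chaperone, was at 18.0 ± 4.58 CPM in the MTJ, 48.4 ± 10.2 CPM in tendon and 11.7 ± 3.58 CPM in muscle, and it rose by 2.09 ± 0.14 in tendon over muscle (adjusted p = 3.88e-08). SEC24D, a coat protein of secretory vesicles, rose by 2.07 ± 0.16, whereas ATF6 fell by 0.27 ± 0.09 (adjusted p = 0.0213) and SEC23A by 0.62 ± 0.10 in tendon. In the MTJ over muscle SERPINH1 was the 1 gene that rose, by 0.65 ± 0.14 (adjusted p = 0.0117), and none fell; without horse as a block it was not called. Relative to tendon 2 rose in the MTJ, ATF6 and SEC23A, and 9 fell. Shares of all tested genes called in these comparisons, in either direction, were 73.1% in tendon over muscle, 6.73% in the MTJ over muscle and 67.1% in the MTJ over tendon, and the counts of the 4 lists stand beside them as descriptions. In tendon over muscle, markers of several cell types moved beside these lists, with 9 of 9 muscle fibre markers lower. Higher were 6 of 7 tenocyte, 5 of 5 macrophage, 4 of 6 endothelial, 2 of 4 cartilage cell and 2 of 3 platelet markers. Of the 6 pericyte and smooth muscle markers 2 were higher and 1, RGS5, was lower (-1.05 ± 0.18 log2 units). Of the 8 tested immediate early response genes 3 were higher and 4 lower. Among all tested genes 38.6% were higher and 34.5% lower there. The part of all these cell types in the counts was not tested.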

How the data were processed

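The authors deposited whole-number read counts per gene, with symbols, chromosomes and a gene Length that the file headers do not explain. Per the submitters' processing notes, the build was EquCab3.0, and DESeq2 1.26.0 is named with no role. The aligner, the counter and any use of strand were not given in the sources used here, and without strand a gene and an overlapping one share reads. The authors also deposited log2 changes of each MTJ sample against a prediction, and reference gene lists with log2 fold changes, each with a p-value adjusted over genes (FDR). Per the file headers, 15 further columns of per-sample values stand in the deposited files and were not used.

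Groups were the labelled tissues, and each horse is 1 animal with 3 tissues. Counts were fitted with edgeR 4.0.16 in R 4.3.3: TMM factors, a low-count filter that removed 14954 genes, tissue and horse as terms over all 15 libraries, robust quasi-likelihood tests and Benjamini-Hochberg adjustment at 0.05. Deviations from the tissue means correlated at 0.150 to 0.589 within a horse and at -0.330 to 0.160 between horses. Horse was kept as a block, since all 3 samples with a number come from that animal. No libraries were duplicates, the lowest chi-square per gene within a tissue being 16.9. The MTJ over mixture ratio is log2 with 0.5 CPM added to both sides, which understates changes of low genes, tested with limma 3.58.1. CPM and per-length values were computed from the counts; the per-length form uses the deposited Length and assumes it is a transcript length. Alternatives were DESeq2 1.42.0, other scaling, filters, pseudocounts and shares, no block, leaving out each horse, and leaving out the tendons of horses 14, 16 and 17 (for the mixture, chosen after seeing the data).

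The members and gene lists were chosen with earlier results of these data known. Named genes were the 5 members, members of the 4 pathway lists and, per member, up to 3 genes of highest correlation. Of 117 listed symbols 114 matched; COL3A1, MIA3 and PF4 are not analysed here. The scripts were tested on simulated data. Training was not compared.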

Additional observations from a re-analysis of the deposited data

Results flagged for a closer look

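In 20 groups of 5 libraries (each member's CPM per tissue, and each member's log2 ratio to the mixture), 3 had a value set apart from the other 4 by Dixon's 95% criterion, and chance alone flags about 1 group in 20. THBS1 in the tendon of horse 17 stood at 1068 CPM, with the nearest other tendon at 4782 CPM. THBS1 in the MTJ of horse 16 stood at 56.4 CPM, with the nearest other MTJ at 277 CPM. THBS2 in the MTJ of horse 20 stood at 39.2 CPM, with the nearest other MTJ at 16.3 CPM.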

How the results depend on the processing

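Of the combinations of a result with an alternative setting, 441 kept direction and side of the threshold, or a count within 1.5 times, 10 counts moved further, 5 values changed sign, 6 gained and 2 lost a call. COMP, THBS1, THBS3 and THBS4 kept direction and call in every alternative of the 3 comparisons between tissues, as did the 10 ratios with other pseudocounts or 1 horse left out; with horses 18 and 20 alone the ratio test cannot pass. Library totals in place of TMM factors were a setting chosen after seeing the data. The median log2 change of all genes then moved to 1.36 in tendon over muscle, 0.22 in the MTJ over muscle and -1.11 in the MTJ over tendon. With these totals THBS2 moved to 2.20 in tendon over muscle (adjusted p = 5.27e-06, edgeR) and to -1.49 in the MTJ over tendon (adjusted p = 0.000136, edgeR). THBS2 was 0.59 in tendon over muscle without horse as a block (no replicate block), and 0.36 once the tendons of horses 14, 16 and 17 were left out, where its MTJ over tendon value turned to 0.14; the block changed no other call of a member. Fitting only the 2 tissues compared gave THBS2 0.49 in the MTJ over muscle (adjusted p = 0.0226), and leaving out 1 horse at a time gave -0.67 to -0.30 in the MTJ over tendon. Against the mixture, COMP passed the test with a pseudocount of 2 CPM (-1.73, adjusted p = 0.0467). THBS4 turned to -0.22 with shares from means and ran from -0.059 to 0.27 with 1 horse left out, below 0 without horse 17 (-0.059) or horse 18 (-0.045). With the 28 most tendon-specific genes, a choice that by construction raises THBS4, THBS1 was 0.020, THBS2 0.63 and THBS4 1.23. The cause of the other changes was not tested. Counts of called genes in the MTJ over muscle were 7 receptors (3 in the fit of 15 libraries), 9 TGF-beta genes (5) and 3 ER genes (1) with only the 2 tissues, 6 receptors and 2 ER genes without the 3 tendon libraries, 3 TGF-beta genes and 0 ER genes without the block, and 3 ER genes with library totals. With 1 horse left out they ran from 1 to 3 receptors and 3 to 6 TGF-beta genes, both lowest without horse 20. Genes called in the MTJ over muscle numbered 947 higher and 85 lower, but 1488 and 1450 with only the 2 tissues, 650 and 13 without the block and 1155 and 285 with DESeq2. COMP in muscle rests on 20 to 58 counts, which limits its ratios there.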
